A study of Drosophila melanogaster and Drosophila persimilis and Drosophila pseudoobscura with 5 samples.

Results

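Between the antennal hearing organs of 5 fruit fly species, 299 of 4982 compared genes set D. melanogaster and D. yakuba apart from D. simulans, D. pseudoobscura and D. persimilis. A gene entered when the smaller of its D. melanogaster and D. yakuba values was 2-fold or more above every one of the other 3, or when the mirror condition held. The 194 higher genes were 3.89% of the compared genes, and the 105 lower genes were 2.11%. The fold was taken on the deposited signal plus a pseudocount of 1, for genes with a mean signal of at least 5 among the 8180 genes of the authors' cross-species table. Since these values chose the genes, the direction and the gap are descriptions, and nothing below is a test. D. melanogaster and D. yakuba are called the pair below, and the other 3 species the trio.

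All flies were adults kept at 25 °C, and each species gave 1 library, so there was no replicate of any species. The groups are species, with no treatment or engineered genotype given in the labels. The sources used here do not give sex, the number of flies, pooling or the time of collection. The column of D. melanogaster carries the word mix in its name, which the labels do not explain.

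Johnston's organ is a large chordotonal organ in the second segment of the antenna. Its neurons carry a motile cilium in which mechanosensory channels and axonemal dyneins turn sound, wind and gravity into electrical signals, and scolopale, cap and glial cells support them. The pair is not a lineage: D. simulans is a closer relative of D. melanogaster than D. yakuba is, and D. pseudoobscura and D. persimilis belong to the obscura group.

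The libraries differed in ways that ran along the pair and trio. Total counts were 22391819 in D. melanogaster and 13916387 in D. yakuba, against 7580214, 12908479 and 9236301 in D. simulans, D. pseudoobscura and D. persimilis, so the pair held the deepest libraries. Genes listed at 0 numbered 1397 and 1710 in the pair and 2145 to 2321 in the trio. The deposited signal has a common upper quartile and, in D. melanogaster, where this was checked, behaves as reads per gene length. It summed to 630196 and 760338 in the pair and to between 859740 and 1179370 in the trio. The part of depth and of this scaling in the calls was not tested.

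The labelled organ was checked by defining markers. The 3 chordotonal neuron markers in the table, nan, nompC and Dhc93AB, were above 0 in every library. They summed to 32.3 and 27.5 in the pair and to 5.25, 25.7 and 12.9 in the trio. In D. simulans nan was at only 0.0834 and nompC at 0.855, beside 4.32 for Dhc93AB. The 2 olfactory segment markers, Orco and Or88a, summed to 82.6 and 622 against 71.6, 366 and 335, so these sums overlapped. The 3 neuron markers overlapped too, at 29.9 and 38.2 against 30.4, 85.9 and 49.8. D. simulans stood apart: its 7 eye markers summed to 7211, against 103.9 and 291 in the pair and 15.8 and 124 in D. pseudoobscura and D. persimilis, where 5 and 2 of them were listed at 0. Its 4 ovary markers summed to 1045, against 7.67 and 50.8 in the pair and 97.3 in D. persimilis, and all 4 were listed at 0 in D. pseudoobscura. The 4 fat body markers summed to 12803 and 5932 in the pair and to 19752, 2061 and 1026 in the trio, so these sums overlapped. The 2 haemocyte markers, at 62.7 and 135 against 495, 55.5 and 31.8, overlapped as well. The only muscle marker in the table, up, encodes a flight muscle troponin T. It had 38.9 and 38.5 in the pair against 87.2, 47.98 and 113 in the trio. This is 1 gene and does not stand for muscle. Of 17 compared muscle genes 5 had a difference above 0, and the 1 called, Mef2, was higher. The part of these other tissues in the calls was not tested. In whole-organ RNA, fewer cells of a type cannot be told apart from less RNA per cell. With D. simulans left out of the trio the same condition was met by 503 higher and 394 lower genes, among them all 194 higher and 103 of the 105 lower genes. Leaving out a library loosens the rule, so called genes that still pass the signal filter are kept by construction. Their number therefore does not show how far the calls depend on D. simulans.

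The pair agreed more closely with each other in the higher genes than in the lower ones. D. melanogaster and D. yakuba lay within 1.5-fold of each other in 136 of the 194 higher genes (70.1%), in 46 of the 105 lower genes (43.8%) and in 44.0% of all compared genes. This fold was taken on the signal plus 1. The rule used the same pair values to choose the genes, so these shares are descriptions. The library of the trio nearest the pair was D. simulans in 100 higher genes, D. pseudoobscura in 58 and D. persimilis in 36. In the lower genes it was D. simulans in 38, D. pseudoobscura in 47 and D. persimilis in 20. Higher genes were weaker, with a median mean signal of 14.6, than lower genes at 52.7, where the median of all compared genes was 27.3. The lowest D. melanogaster count among higher genes was 175 reads, whereas 28 lower genes had fewer than 20. The rule asks for high D. melanogaster values in higher genes and low ones in lower genes, so these counts follow from the selection. The median signals also hold the values that chose the genes and are descriptions.

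Values of 0 entered both sides. Of the higher genes 42 had a listed 0 in the trio, 3 of them in all 3 species, and of the lower genes 22 were listed at 0 in the pair, 3 of them in both species. Among the 4439 genes above 0 in every library, 152 were higher (3.42%) and 83 lower (1.87%). The balance between the sides depended on the scaling. When each library was brought to the same total signal, 460 genes were higher and 40 lower, so the higher share of calls went from 64.9% to 92.0%, and the median difference of all genes moved from 0.10 to 0.70 on the log2 scale. All 194 higher and 40 of the 105 lower genes were among those calls. The factors were 1.45 and 1.21 in the pair and 0.777, 1.07 and 0.795 in the trio. Each pair library was thus raised against each trio library, so the keeping of the higher genes follows from the scaling.

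The edge of the selection was gradual. GatB, just inside on the higher side, had a signal of 12.4 and 10.7 in the pair against 4.83, 0.3001 and 0.389 in the trio. Nrx-IV, which encodes a septate junction protein, was just outside at 34.5 and 26.3 against 12.7, 12.6 and 2.74. On the lower side CG5555 was just inside at 16.1 and 6.02 against 36.1, 34.5 and 33.4, and CG14742 just outside at 18.1 and 13.5 against 84.5, 37.2 and 59.8. Genes on either side of the edge therefore had alike patterns.

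**Figure D1:**
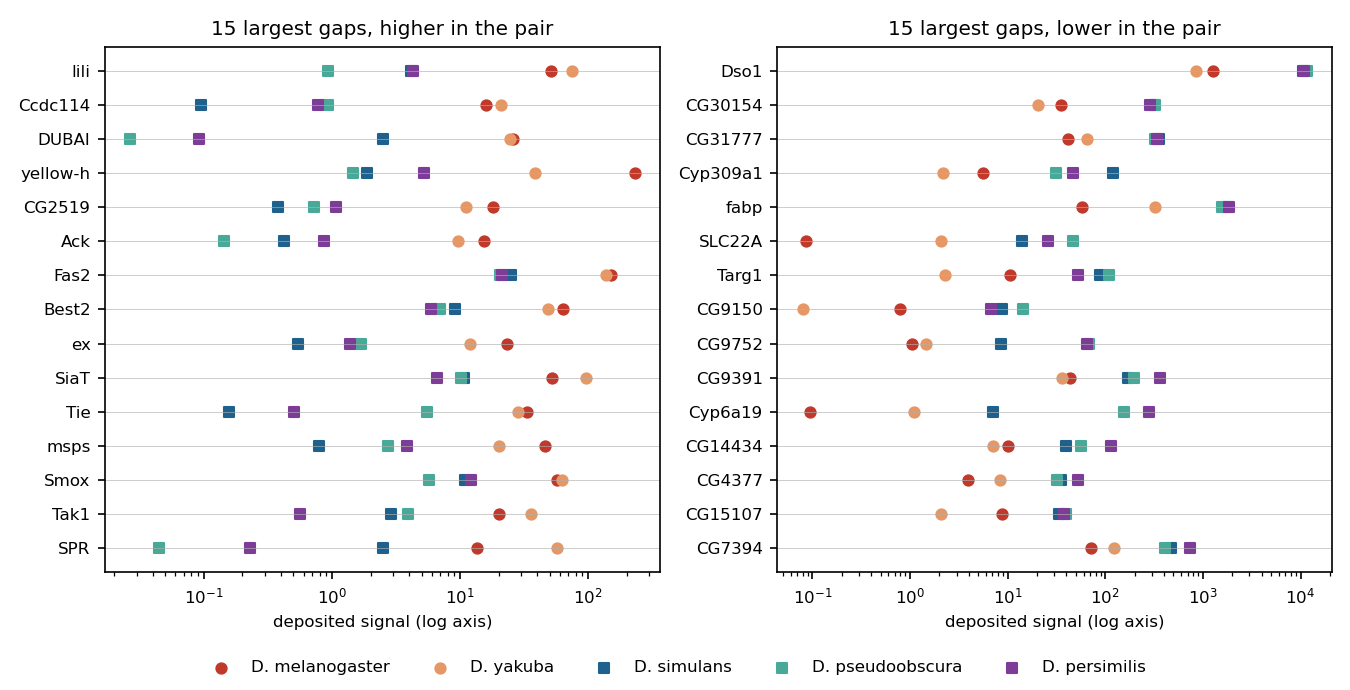
Deposited signal (log axis) of the genes above 0 in all libraries with the largest gaps on each side, 1 point per library, circles for D. melanogaster and D. yakuba and squares for the other 3 species. The circles lie right of every square for the higher genes and left of every square for the lower genes, as the selection requires, and the distance between the groups differs from gene to gene.

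The called genes of the cilium lists were few, and all were higher. Of all compared genes 3.89% were higher and 2.11% lower, so no direction is read from calls this few. Of 8 compared genes for axonemal dynein and its assembly, 2 were higher and none lower, and CCDC151, which the list did not hold and which was picked after its values were seen, was also higher. Ccdc114 and CCDC151 are relatives of human proteins that dock the outer dynein arm on the axoneme, and Dnai2 encodes an intermediate chain of the outer arm. Ccdc114 (BDGP6 chromosome 3R, 16622735 to 16624717) had a signal of 16.0 and 20.9 in the pair against 0.0957, 0.933 and 0.777 in the trio, from 443 D. melanogaster reads with a 95% exact Poisson interval of 403 to 486. Dnai2 (3L, 11697126 to 11699263) stood at 72.1 and 64.6 against 10.8, 21.8 and 13.4. CCDC151 stood at 12.9 and 11.1 against 5.02, 2.91 and 0.272, close to the 2-fold edge. All 3 genes have exon sums from 1660 to 1885 bases, near the median of all compared genes, 1815.

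The list for ciliogenesis and intraflagellar transport had 1 higher gene of 17, ktub, whose tubby-family protein carries membrane proteins into cilia. It had a signal of 13.4 and 24.9 in the pair against 4.09, 1.40 and 1.60. The median log2 difference between the mean of the pair and the mean of the trio was 1.01 for the axonemal dynein list, 1.001 for the ciliogenesis list and 1.06 for the 6 chordotonal support genes, of which none passed, beside 0.10 for all compared genes. Members differed in sign: the ciliary genes IFT54, BBS8, Cby and B9d1 had differences below 0, from −2.05 in B9d1 to −0.21 in Cby. Without D. simulans the 3 medians were 0.55, 0.36 and 0.87, beside 0.09 for all genes, and with the exon length trend described below removed they were 0.36, 0.57 and 0.48.

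Among the 4 compared mechanosensory channel genes, pain was higher. It encodes Painless, a TRPA channel of nociception that is also expressed in Johnston's organ. Its signal was 58.5 and 44.7 in the pair against 17.9, 5.77 and 5.92 in the trio. The hearing channel gene nan was not called, with 13.4 and 11.9 against 0.0834, 7.15 and 7.13. The onecut gene for a neuronal transcription factor, the 1 higher gene of 4 on the list of antennal transcription factors, had 6.50 and 19.3 in the pair, 0.0217 and 2.20 in D. pseudoobscura and D. persimilis, and was listed at 0 in D. simulans.

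Fas2 (X, 4132887 to 4206093) encodes an immunoglobulin adhesion molecule that bundles axons. Its signal was 150 and 139 in the pair against 25.1, 20.6 and 21.3 in the trio, a gap of 5.35-fold on the signal plus 1, from 9929 D. melanogaster reads. Each group was tight for this gene, and the groups were far apart. Of 13 immunoglobulin adhesion genes compared, 3 were higher and none lower, with a median difference of 1.20. The others were beat-IIIb, at 19.97 and 24.4 against 6.26, 0.653 and 1.09, and DIP-eta, whose product pairs with Dpr proteins on other neurons, at 14.9 and 37.6 against 0.512 and 0.0478, and listed at 0 in D. persimilis.

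Of 15 compared glial genes 3 were higher and none lower, with a median difference of 1.05, which was 1.03 without D. simulans. Gs2, the glutamine synthetase that clears glutamate in glia, had a signal of 1802 and 1690 against 731, 778 and 613. Gli, for the tricellular junction protein Gliotactin, had 19.1 and 13.1 against 3.41, 4.61 and 1.62, and ogre, for a gap junction innexin, had 85.8 and 149 against 25.4, 32.4 and 25.9. The glial marker repo overlapped between the groups, at 15.2 and 22.0 against 12.7, 30.5 and 0.811. The polarity gene scrib, the longest called gene, stood at 17.0 and 16.6 against 5.33, 4.38 and 6.20. The Hippo pathway regulator ex stood at 23.2 and 11.9 against 0.541, 1.69 and 1.38.

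Of 18 neuronal and synaptic genes 2 were higher, Fas2 and Csp. Csp encodes the cysteine string protein, a chaperone of synaptic vesicles, and had 48.2 and 53.0 against 12.4, 13.9 and 9.90. The 9 higher genes of vesicle traffic, a grouping made after the values were seen, also held Sec31 of the COPII coat and Sec6 and Sec8 of the exocyst. Sec31 had a signal of 30.1 and 29.6 in the pair against 12.4, 6.10 and 6.39. Sec6, at 16.0 and 18.2 against 0.307, 6.95 and 0.544, and Sec8, at 30.8 and 34.7 against 14.1, 3.18 and 7.52, lay closer to the 2-fold edge.

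Among the higher genes, 25 were sorted as signalling genes by known function after their values were seen. The share of signalling genes among all compared genes was not counted, so nothing is read from that number. Kinases were among those with the wider gaps. Ack, a cytoplasmic tyrosine kinase, had 15.3 and 9.67 in the pair against 0.423, 0.144 and 0.864 in the trio. Tie, a receptor tyrosine kinase, had 33.1 and 28.2 against 0.156, 5.52 and 0.506. Tak1, a kinase of the Imd immune pathway, had 20.03 and 35.7 against 2.91, 3.95 and 0.565. The trio values of all 3 kinases were low, and which library was lowest differed among them.

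The Toll pathway had members on both sides. Higher were spz, for the Toll ligand, Tl, for the receptor, and tub, for an adaptor below it. The ligand gene spz had a signal of 65.8 and 42.2 against 20.03, 5.94 and 17.0. The receptor gene Tl had 9.61 and 12.6 against 0.827 and 3.83, and was listed at 0 in D. persimilis. The adaptor gene tub had 37.0 and 36.4 against 5.57, 10.9 and 13.2. On the lower side stood Dso1, which encodes a Daisho peptide that Toll signalling induces, with the largest gap of any lower gene above 0 in all libraries. Dso1 (2R, 20868496 to 20869321) had a signal of 1268 and 848 in the pair against 10488, 11594 and 10819 in the trio, from 9030 D. melanogaster reads. The antimicrobial peptide gene Def was also lower, at 2.25 and 2.37 against 293, 7.53 and 6.56, so that D. simulans set most of its difference. Of 25 immune genes compared, 2 were higher and 2 lower, and the median difference was 0.16, which was 1.07 without D. simulans.

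Other receptors and signal carriers on the higher side included Smox and SPR. Smox encodes the Smad that carries activin signals and had 56.7 and 62.2 against 10.96, 5.73 and 12.3. SPR, the receptor of sex peptide and of myoinhibitory peptides, had 13.6 and 56.9 against 2.50, 0.0450 and 0.231. For SPR the members of the pair differed from each other by more than the 2-fold threshold.

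**Figure D2:**
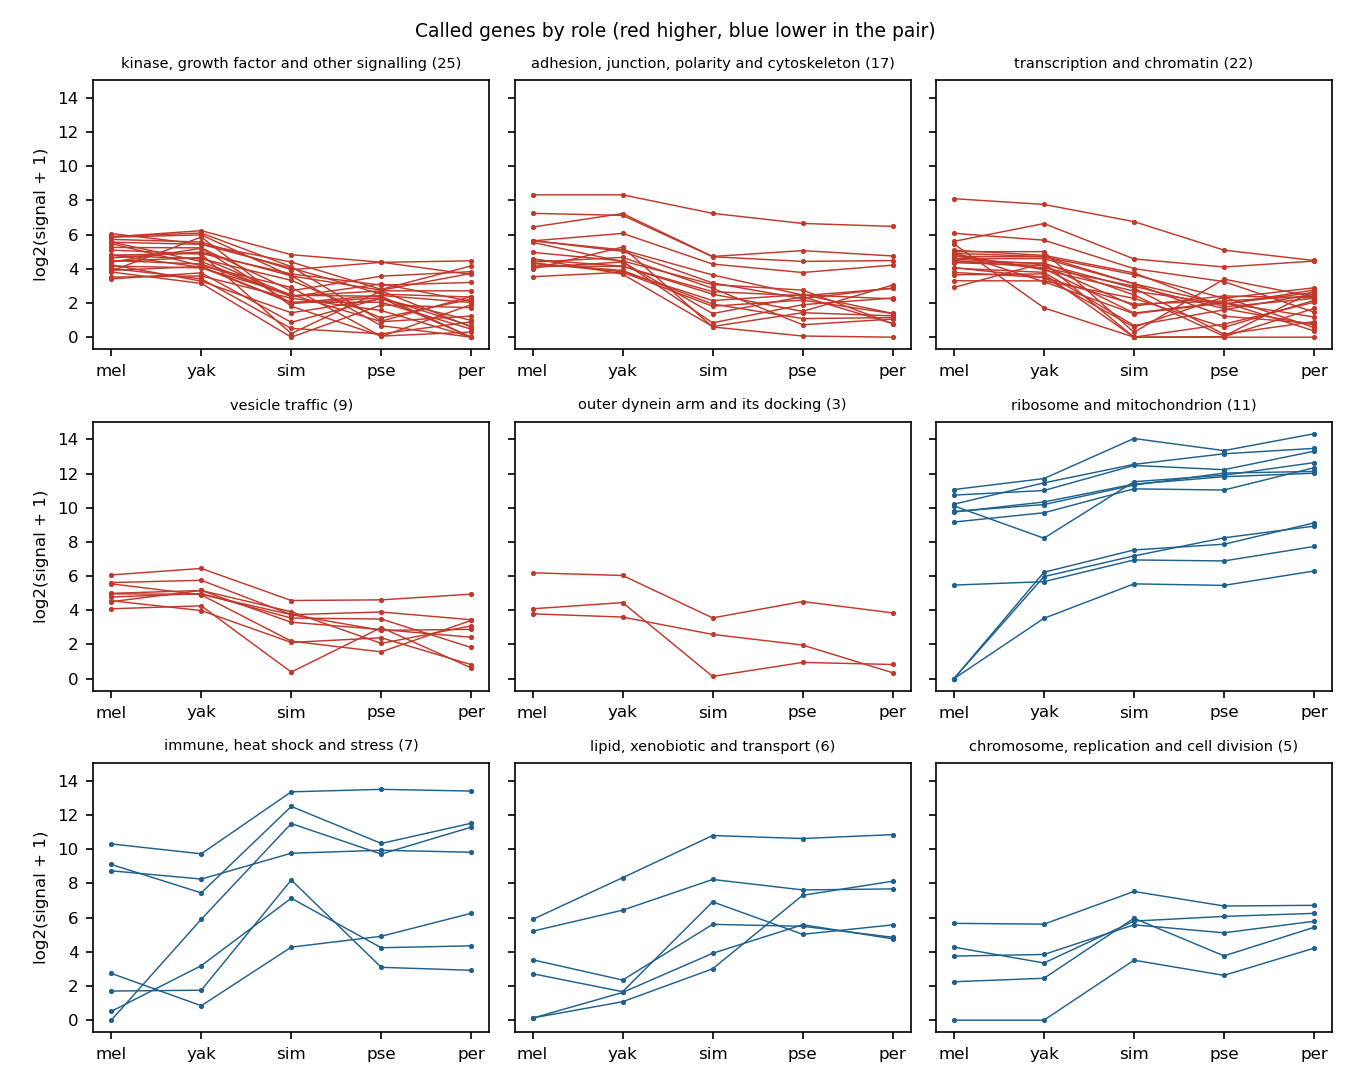
Signal as log2(signal + 1) in each library, in the order D. melanogaster (mel), D. yakuba (yak), D. simulans (sim), D. pseudoobscura (pse) and D. persimilis (per), for called genes grouped by known role after the values were seen. Each line is a gene, red where higher and blue where lower in the pair, and the number of genes stands in each title; signalling has 25 and the ribosome and mitochondrion 11.

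Of 8 circadian clock genes 3 were higher and none lower. Pdp1 and vri encode the bZIP factors that activate and repress Clk, and cyc encodes the partner of CLK. Pdp1 had a signal of 66.5 and 50.0 against 15.1, 8.51 and 1.76. The repressor gene vri had 19.5 and 17.3 against 2.55, 4.32 and 3.91, and cyc had 47.6 and 99.1 against 22.9, 16.2 and 20.8. The blue-light receptor gene cry had 207 and 108 against 77.4, 24.8 and 19.2 and was not called. In the other direction, tim had 8.57 and 3.43 against 16.6, 17.9 and 12.1 and was not called. Nor was jet, also lower in the pair, at 20.7 and 9.52 against 69.7, 33.7 and 42.7. The groups did not overlap in cry, tim or jet. The share of such genes among all compared genes was not counted, so nothing is read from this. Clk overlapped, at 10.1 and 4.91 against 0.135, 9.02 and 2.35. The sources used here do not give the time of day at which each species was collected, and it cannot be told apart from species in these genes.

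Best1 and Best2 encode bestrophin chloride channels. Best2 had a signal of 63.8 and 48.5 against 9.18, 6.99 and 5.89, and Best1, named after its values were seen, had 43.6 and 66.7 against 9.88, 6.15 and 4.50. Of 5 yellow family genes, whose secreted products include proteins of cuticle pigmentation, 2 were higher and none lower. In yellow-h the pair had 230 and 38.3 against 1.89, 1.45 and 5.23, and in yellow-e 147 and 49.7 against 21.9, 1.45 and 4.95. D. melanogaster was the highest library in both yellow genes, by a wide margin over D. yakuba.

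Of 14 cuticular protein genes 2 were higher and none lower, with a list median of 0.04. Cpr67B had 650 and 344 in the pair against 162, 110 and 141 in the trio. Cpr66D had 17.3 and 19.5 against 3.52 and was listed at 0 in both obscura group species. Cyp4g15, of a P450 subfamily whose fly members include the enzyme of cuticular hydrocarbon synthesis, had 178 and 168 against 23.1, 44.1 and 19.9. On the lower side, 2 other P450 genes were found among 31 compared. Cyp309a1 had 5.58 and 2.17 against 120, 31.5 and 46.6. Cyp6a19 had 0.0941 and 1.11 against 7.02, 157 and 279, from only 3 D. melanogaster reads, and shares exon sequence with Cyp6a9.

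The 2 genes with the largest gaps above 0 in all libraries were lili and Ccdc114. For lili (3R, 24805445 to 24814012) the signal was 51.6 and 75.4 in the pair against 4.12, 0.929 and 4.31, a gap of 9.90-fold on the signal plus 1. DUBAI, a deubiquitinase that acts on an inhibitor of apoptosis, followed with 25.9 and 24.6 against 2.50, 0.0267 and 0.0916. Genes listed at 0 in the trio included CG15650, with 32.3 and 37.3 in the pair and 0 in all 3 others, and the digestive protease gene Jon74E, with 111 and 3.54 and 0 in all 3 others. The gene fuss, for a protein of the Ski family, was likewise at 0 in the trio, with 42.8 in D. melanogaster and 2.28 in D. yakuba. The matching of genes across species is undescribed in the sources used here, and a 0 outside D. melanogaster may be a missing match.

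The lower side included a few abundant short genes of the ribosome and the mitochondrion, most of which lost their call with equal library totals. Of 50 cytosolic ribosomal protein genes 4 were lower and none higher, and only 4 had a difference above 0. The family's median difference was −0.95, which was −0.93 without D. simulans and −0.38 with equal library totals, where the median of all genes was 0.70. RpS20 had a signal of 1099 and 297 in the pair against 2935, 3827 and 6365 in the trio. RpL12 had 856 and 1290 against 2664, 3598 and 4141. The other lower members were RpL37A, at 1181 and 2805 against 5936, 9117 and 11350, and RpS13, at 877 and 1163 against 2562, 4171 and 4451. D. persimilis was the highest library in each of these 4 genes, and none of the 4 was called with equal library totals.

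Of 52 compared genes of the respiratory chain and ATP synthase, 3 were lower and none higher, 4 had a difference above 0, and the median was −1.03 (−0.81 without D. simulans). ND-MLRQ, a small subunit of complex I, had 2139 and 3338 in the pair against 16939, 10365 and 20543. ND-SGDH, also of complex I, had 572 and 833 against 2199, 2097 and 5175. ATPsynF, a subunit of the ATP synthase membrane part, had 1706 and 2058 against 5684, 4783 and 10121, and shares exon sequence with CG13587, which was called lower too. With equal library totals ND-MLRQ was still called lower and the other 2 were not. Muscle is rich in mitochondria, and besides up the myosin light chain gene Mlc1 was lower in each library of the pair, at 844 and 3896 against 8793, 4390 and 21722, without passing the gap. Muscle genes went both ways, and 5 of the 17 compared had a difference above 0. Among them TpnC73F was higher in each library of the pair, at 38.5 and 44.4 against 34.0, 8.51 and 8.59. The part of muscle in the values of the respiratory chain genes was not tested. Of 54 mitochondrial ribosomal protein genes 1 was lower, mRpS16, at 43.4 and 50.1 against 122, 117 and 211, and the median was −0.61. It was not called with equal totals. The 9 housekeeping reference genes, with a median exon length of 2615 bases, had a median difference of 0.59 and none called.

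Of 17 heat shock and stress genes 2 were lower and none higher, with a median of −0.12. Hsp22, a mitochondrial small heat shock protein, was listed at 0 in D. melanogaster, where it overlaps CG4456, and had 58.8 in D. yakuba against 2895, 841 and 2507 in the trio. Hsp67Bc had 0.425 and 8.11 against 139, 17.9 and 19.4. MtnA, for the metal-binding metallothionein A, was picked after its values were seen and had 551 and 173 against 5803, 1293 and 2933. In all 3 genes D. simulans was the highest library.

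The gene fabp, for a fatty acid binding protein, had a signal of 58.5 and 322 in the pair against 1781, 1578 and 1848 in the trio. The 3 species of the trio lay close together, and D. melanogaster was far below D. yakuba. Fatp3, for a fatty acid transport protein and named after its values were seen, had 10.6 and 4.09 against 47.6, 44.0 and 27.8. Targ1 stood at 10.6 and 2.30 against 89.3, 109 and 52.1. The odorant-binding protein gene Obp99c, the 1 called of 24 in its family, had 1103 and 734 against 7312, 2862 and 6897. The uncharacterized genes CG30154 and CG31777 had even trio values, at 319, 322 and 290 for CG30154 against 34.8 and 20.3 in the pair, and at 353, 327 and 341 for CG31777 against 41.3 and 65.0.

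Exon overlap touched many lower genes. Of the 104 lower genes matched to the BDGP6 annotation 52 (50.0%) share exon sequence with another gene, against 63 of 192 higher genes (32.8%) and 43.3% of all compared genes. Of the lower genes 16 were listed at 0 in D. melanogaster alone. All 16 had 0 D. melanogaster reads, which allows up to 3 reads each, and 13 of them share exon sequence with another gene. They include sloth1 and sloth2, mitochondrial micropeptides made from the same transcript, and Snapin and HemK2, which lie on the same stretch of chromosome 2L from 2758427 to 2759677. For sloth1 the D. yakuba signal was 73.9 and the trio had 184, 232 and 552. For Snapin the D. yakuba signal was 5.94 and the trio had 36.3, 33.8 and 39.1. The sources used here do not give the authors' handling of reads at overlapping genes, and its part in these zeros was not tested. Among the 299 genes 5 pairs share exon sequence. In 1 of these pairs the sides differed: Smox was higher, and its overlapping neighbour CG2120 was lower, at 1.01 in D. melanogaster and 0 in D. yakuba against 14.4, 11.5 and 6.93.

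**Figure D3:**
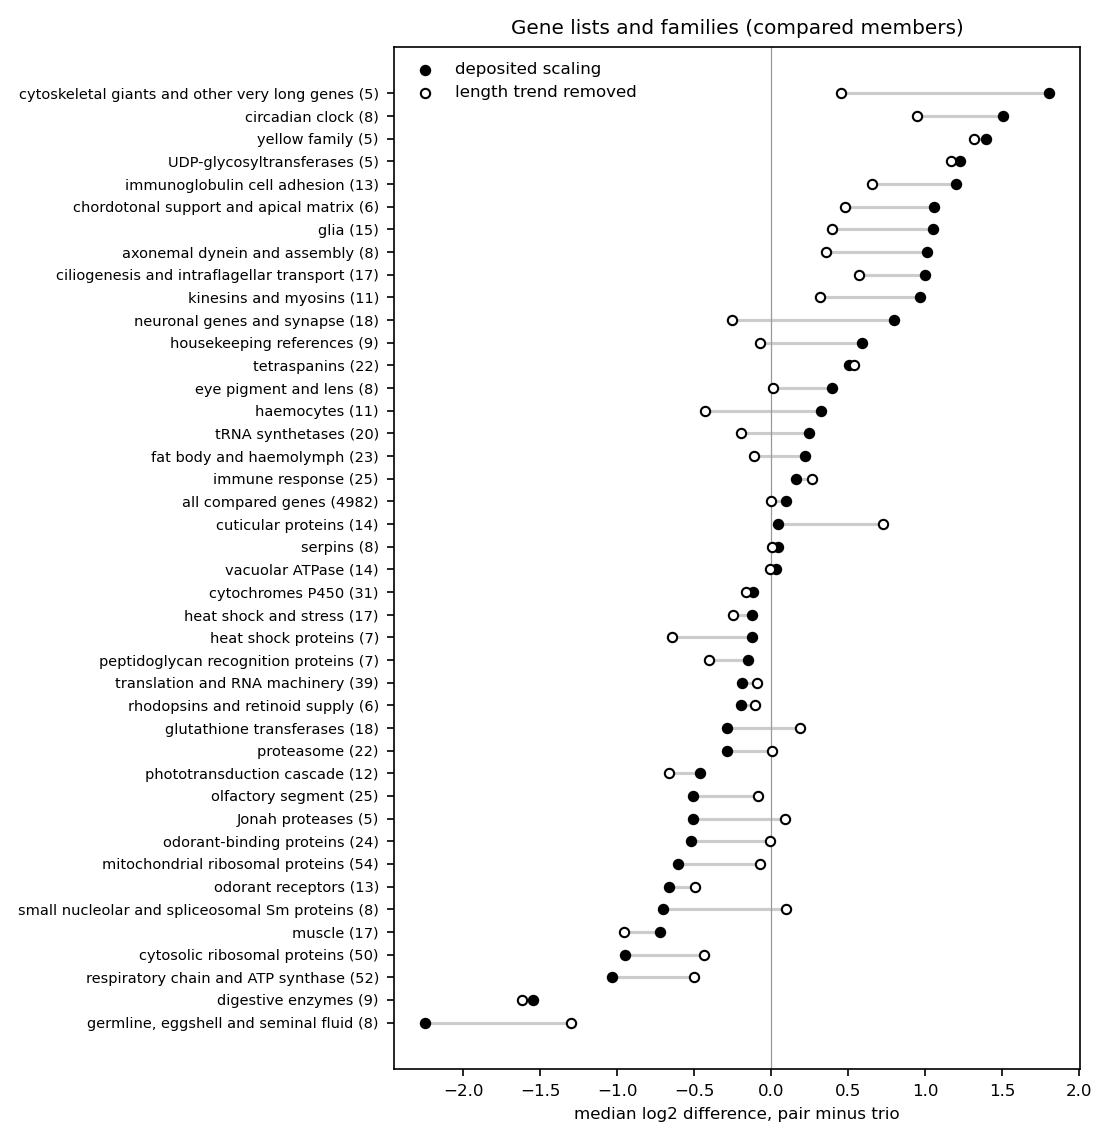
Median log2 difference (mean of the pair minus mean of the trio) of each gene list or family, with the number of compared members in parentheses, filled for the deposited scaling and open with the exon length trend removed. Ribosomal and respiratory chain families lie left of 0 at −0.95 and −1.03, ciliary and glial lists lie near 1, and most lists move towards 0 when the length trend is removed.

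Several tissue lists had no member on either side. Of all compared genes only 3.89% were higher and 2.11% lower. Lists this short would hold few calls at those shares, so nothing is read from an empty list. None of 23 fat body genes, 11 haemocyte genes, 25 genes of the olfactory segment, 13 odorant receptors, 12 phototransduction genes or 6 rhodopsin and retinoid genes was called. Their medians were 0.22, 0.32, −0.50, −0.66, −0.46 and −0.19. With D. simulans left out, the medians were 0.35 for fat body, 1.11 for haemocytes, −0.78 for the olfactory segment, −1.62 for odorant receptors and 2.80 for phototransduction. Muscle genes had a median of −0.72 over 17 (−0.35 without D. simulans). Mef2, a muscle transcription factor, was the only one called, higher at 8.84 and 8.80 against 3.83, 0.488 and 3.44. The 8 genes of the germline, eggshell and seminal fluid list had a median of −2.25 (−3.25 without D. simulans) with none called. Its 4 seminal fluid genes, with differences from −2.48 to −2.13, had most of their signal in D. persimilis, as Acp53C14a had 316 there, 0.493 in D. yakuba and 0 elsewhere. Its 3 eggshell genes had differences from −1.31 to −0.40 and their highest values in D. simulans.

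The sides also differed in gene length. The median summed exon length was 3315 bases in 192 higher genes, with quartiles of 2314 and 4900, and 925 bases in 104 lower genes, with quartiles of 692 and 1334. All 4926 compared genes with an annotation had a median of 1815, with quartiles of 1175 and 2874. Higher genes reached from 569 to 17197 bases and lower genes from 375 to 3934. Exon sums over 3000 bases were found in 110 higher genes (57.3%), in 3 lower genes (2.88%) and in 22.96% of all. Exon lengths are those of D. melanogaster in BDGP6, and the rule did not use them. The deposited values of D. melanogaster behave, however, as if divided by a gene length, and the other libraries were not checked for this.

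Other measures of size went with exon length. The median coding length was 1976 bases for higher genes, 539 for lower genes and 1176 for all. Median numbers of separate exon blocks were 6, 3 and 4 in the same order, and median genomic spans were 6503, 1181 and 2364 bases. The longest named higher genes were scrib at 17197, bun at 12590 and Pdp1 at 12138 bases. The shortest lower genes with a gene name rather than a CG number were Def at 399, msd1 at 528 and ND-MLRQ at 538. Among genes with a gene name, the exceptions were short higher genes and long lower genes. The short higher genes were Jon74E at 903, Cpr67B at 1010 and lbm, for a tetraspanin of motor axons, at 1098. The long lower genes were Coq4 at 3934, Tmtc3 at 3572 and Nep6 at 2572.

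**Figure D4:**
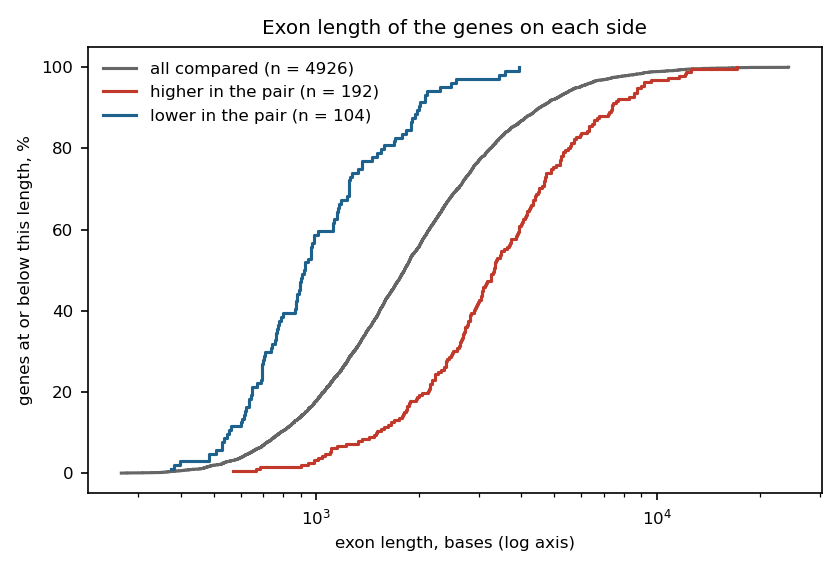
Cumulative share of genes (%) at or below each summed exon length (bases, log axis) for the 192 higher, 104 lower and 4926 compared genes with an annotation. The curve of the lower genes lies left of that of all genes and the curve of the higher genes lies right, with medians of 925, 1815 and 3315 bases.

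The calls changed steadily along exon length. In 5 equal bins from short to long, higher genes numbered 8, 12, 19, 52 and 101, or 0.811%, 1.22%, 1.93%, 5.28% and 10.3% of the genes in each bin. Lower genes numbered 62, 20, 16, 3 and 3. The median log2 difference of all genes in a bin, called or not, went from −0.68 in the shortest bin, of 268 to 1051 bases, through −0.19, 0.05 and 0.42 to 0.85 in the longest, of 3247 to 24343 bases. The gradient thus ran through all compared genes.

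Each library had its own slope with length. The median deviation from the mean of the 5 libraries went from −0.34 in the shortest bin to 0.55 in the longest in D. melanogaster, and from −0.38 to 0.57 in D. yakuba. It went the other way in D. simulans, from 0.37 to −0.29, and in D. persimilis, from 0.52 to −0.56. In D. pseudoobscura it was 0.05 in both bins. Across 4926 genes, the Spearman correlation between exon length and the log2 difference was −0.03 for D. melanogaster minus D. yakuba, and for the 6 differences of a pair library minus a trio library it lay between 0.21 and 0.42. These differences share libraries and any division of the signal by gene length, and the correlations are descriptions.

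**Figure D5:**
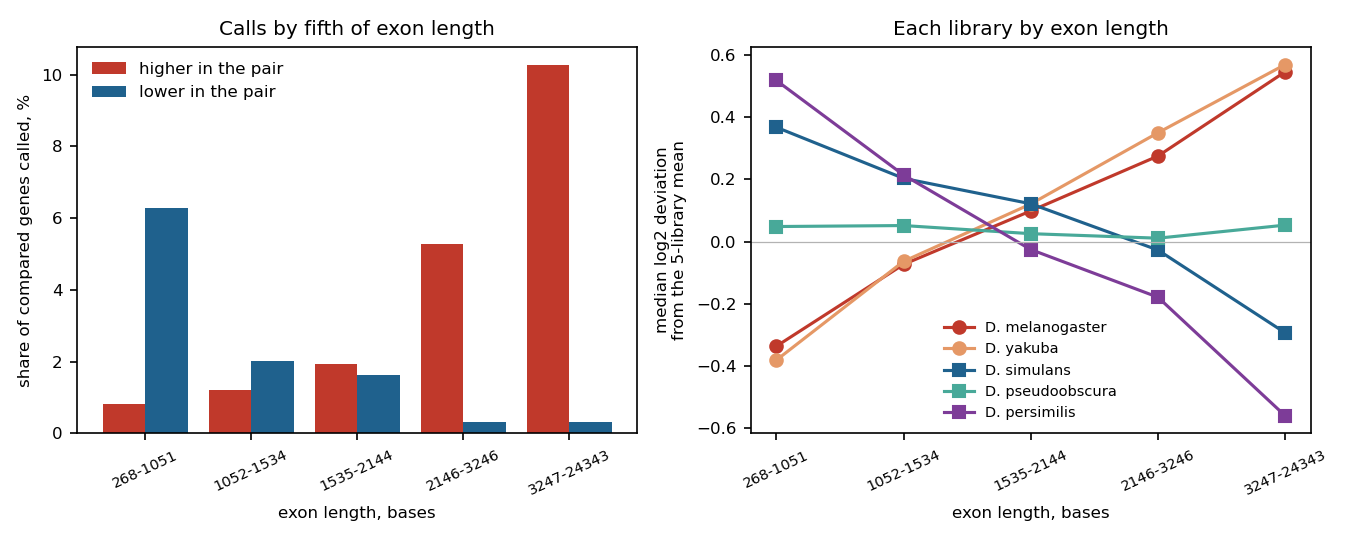
Left, share of compared genes called higher or lower (%) in 5 equal bins of exon length (bases). Right, median log2 deviation of each library from the 5-library mean in the same bins; D. melanogaster and D. yakuba rise from about −0.34 and −0.38 to 0.55 and 0.57, D. simulans and D. persimilis fall, and D. pseudoobscura is at 0.05 in the first and last bins.

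Exon length also varied with signal. In 3 equal bins of mean signal the median exon lengths of higher and lower genes were 3698 and 975 bases among weak genes, 3081 and 1118 in the middle, and 2276 and 800 among strong genes, while all genes of these bins had medians of 2511, 1843 and 1281. Weak genes were mostly called higher (106 against 11), and strong genes mostly lower (25 against 53). With a minimum mean signal of 20, 71 genes were higher and 86 lower.

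When the trend of each library on exon length was removed before the calls, 105 genes were higher and 79 lower, and their median exon lengths were 1980 and 1900 bases. Of the original genes 85 higher and 54 lower were among these calls. Ccdc114, Dnai2, ktub, Fas2, DIP-eta, Csp, Best1, Best2, yellow-h, yellow-e, cyc, lili, Ack, Tie, Tak1, Smox, tub and SPR remained higher. Dso1, fabp, Cyp309a1, Cyp6a19, Fatp3, Targ1, Hsp22, CG30154 and Coq4 remained lower. Among the calls that ended there were those of pain, CCDC151, onecut, beat-IIIb, Gli, Gs2, ogre, scrib, Pdp1, vri, Tl, spz, Mef2, Sec31, Sec6 and Sec8 on the higher side. On the lower side they included all 4 cytosolic ribosomal protein genes, mRpS16, CG31777, ND-MLRQ, ND-SGDH, ATPsynF, Obp99c, MtnA, Def and Hsp67Bc.

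By role, the removal of the trend left 9 of 25 signalling genes, 5 of 17 adhesion and cytoskeleton genes, 6 of 22 transcription and chromatin genes, 2 of 3 outer dynein arm genes, 1 of 11 ribosome and mitochondrion genes and 5 of 6 lipid and xenobiotic genes. List medians moved in the same way: cytosolic ribosomal proteins from −0.95 to −0.44, the respiratory chain from −1.03 to −0.50, neuronal genes from 0.80 to −0.25 and glia from 1.05 to 0.40. The clock list went from 1.51 to 0.95, and its calls from 3 higher and 0 lower to 1 higher, cyc, and 1 lower, tim. The yellow family median went from 1.40 to 1.32. The part of exon length in the calls was not tested beyond this removal of the trend.

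Median exon lengths on each side varied among the other partitions of the 5 libraries into 2 and 3. D. pseudoobscura and D. persimilis against the rest gave 520 genes, with median exon lengths of 1172 bases for higher and 2404 for lower. D. simulans and D. persimilis against the rest gave 191, with 987 for higher and 3473 for lower, the reverse of the order seen here. Other partitions had nearer lengths, such as D. melanogaster and D. simulans, with 1401 and 1576, and D. yakuba and D. persimilis, with 1340 and 1593. The 299 genes of D. melanogaster and D. yakuba were the second largest number of the 10 partitions. These partitions share libraries, so their counts are not independent.

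By chromosome, higher genes were 2.95% of compared genes on 2L, 3.07% on 2R, 5.02% on 3L, 4.40% on 3R and 3.90% on X, and lower genes were between 1.59% and 2.57% on these arms. The small chromosome 4 had 4 higher genes among 36, namely yellow-h, onecut, Syt7 and fuss, and no lower one.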

How the data were processed

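RNA of Johnston's organ from 5 species was compared, 1 library each. The deposited counts, whole reads per gene of each species' own annotation (releases 5.46, 1.3, 1.4, 2.30 and 1.3 for D. melanogaster, D. yakuba, D. simulans, D. pseudoobscura and D. persimilis), came from a workflow naming TopHat2 2.0.3 and HTSeq, per the submitters' processing notes; they served for depth and for D. melanogaster counts with 95% exact Poisson intervals, which cover counting error only. The deposited signal of the authors' cross-species table is not described in the labels. Its upper quartile is 34.3 in each library. In D. melanogaster it behaves as reads over gene length. There signal times exon length over count lay within 5% of its median for 76.8% of 5842 genes with more than 20 reads. The other libraries were not checked in this way. The sources used here do not give how genes were matched, nor strand and overlap settings.

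Signal was taken as log2(signal + 1), which understates differences of low genes. Of 8180 symbols 8087 matched BDGP6 identifiers, 30 of them shared; BDGP6 is later than the authors' release, and lengths in the other species were not used here. The called genes, the lists and the alternatives were chosen with earlier results of these data known. Genes named were, on each side, the 15 largest gaps above 0 everywhere, the 6 largest listed at 0, called list or family members, the 2 nearest the threshold on either side, and the 3 longest and 3 shortest with names; the text gives a selection of these. Role groups, and genes named through them alone, were chosen after their values were seen. The length trend was a loess fit (span 0.5) of each library's deviation on log10 exon length. With 1 library per species, no tests or p-values were made. The calling step was run on simulated data whose planted shifts were far larger than the 2-fold threshold. That run checks the code and cannot show how reliable calls near the threshold are. Other scalings, pseudocounts, filters and left-out libraries were tried. Python 3.11.15, pandas 2.3.3, scipy 1.17.1, statsmodels 0.14.6 and edgeR 4.0.16 (TMM factors only) were used. No sequences are shown.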

Additional observations from a re-analysis of the deposited data

How the results depend on the processing

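No alternative turned a called gene to the other side. The 194 higher and 105 lower genes became 460 and 40 with equal library totals, and 35 and 17 with a 4-fold gap. Higher genes numbered 129 with a pseudocount of 5, 71 with a minimum mean of 20, 325 with no filter and 105 with the length trend removed. TMM factors gave 177 higher and 116 lower, and the median of ratios 153 and 124. Median exon length of higher genes was 2985 with equal totals, 2843.5 with a minimum mean of 20, 2988 with a 4-fold gap and 1980 with the length trend removed, where that of lower genes was 1900. Members of any gene list or family called higher (27) and lower (16) became 50 and 6 with equal totals, 14 higher with a minimum mean of 20, 6 and 3 with a 4-fold gap, and 15 and 7 with the length trend removed. Leaving out 1 library loosens the rule by construction: higher and lower genes numbered 331 and 343 without D. melanogaster, 400 and 412 without D. yakuba, 503 and 394 without D. simulans, 271 and 151 without D. persimilis, and 354 and 212 without D. pseudoobscura. Over these 5, median exon length lay between 2753 and 3411 for higher and between 994 and 1254 for lower genes, and list members between 34 and 72 higher and between 20 and 75 lower. Of 83 named genes 48 kept their call under each alternative in which they could be called, the 4-fold gap aside. No paired analysis was possible because each species has 1 library. The cause of these changes was not tested. The lower genes include 28 with fewer than 20 D. melanogaster reads, whose counting error is the largest.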
